A study of Mus musculus with 12 samples.

Results

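The genes described here are 10 genes of the PDK1, FOXO and insulin signaling route, taken by their mouse symbols from a table of 17571 genes: Pdpk1, Insr, Irs1, Irs2, Foxo1, Foxo3, Ccng2, Bcl6, Pik3ip1 and Sesn3. Their transcript levels were measured by RNA sequencing in L929 cells, a mouse fibroblast line from C3H/An connective tissue. All 12 libraries came from this 1 line, and the 4 groups had 3 libraries each. Mock cells received the solvent DMSO. The pEGFP-N1 group received DMSO and then a plasmid that encodes green fluorescent protein. The BX795 group received the kinase inhibitor BX795 at 0.5 µM. The last group received BX795 followed by pEGFP-N1. Pretreatment lasted 1 h and transfection 6 h. The question asked of these genes was whether FOXO-regulated transcripts shift when cells receive BX795 without plasmid.

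Insulin and related growth factors act through a receptor (Insr) and docking proteins (Irs1, Irs2) that recruit PI3-kinase, whose lipid product brings AKT to the membrane, where PDK1, the product of Pdpk1, phosphorylates and activates it. Active AKT phosphorylates FOXO transcription factors, which are then held in the cytoplasm. When AKT activity falls, FOXO factors enter the nucleus and activate genes that slow the cell cycle, restrain growth signaling or promote apoptosis, and they also activate Insr and Irs2. BX795 is best known as an inhibitor of TBK1 and IKKε, the kinases that link DNA sensing to interferon, and it was first described as an inhibitor of PDK1. The activity of PDK1, AKT and FOXO proteins was not measured in these libraries, which hold transcript levels only.

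Of the 6 members taken as FOXO-regulated, Ccng2, Bcl6 and Pik3ip1 had the largest differences between BX795 and mock, and their promoter windows are shown because the comparison turns on these genes. Each window runs from 250 bases before to 50 bases after the RefSeq start site on the GRCm38.p6 build, is written 5′ to 3′ on the gene's own strand, and has in capitals every match to AAACA or its reverse complement TGTTT, the core of the FOXO binding motif.
Ccng2 (chr5:93267323-93267622, plus strand): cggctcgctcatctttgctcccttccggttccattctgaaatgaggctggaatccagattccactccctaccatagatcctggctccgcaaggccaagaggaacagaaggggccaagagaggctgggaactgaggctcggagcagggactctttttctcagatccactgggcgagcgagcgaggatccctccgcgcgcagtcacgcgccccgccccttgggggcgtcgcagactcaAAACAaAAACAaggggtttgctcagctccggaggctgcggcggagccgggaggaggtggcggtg
Bcl6 (chr16:23981234-23981533, minus strand): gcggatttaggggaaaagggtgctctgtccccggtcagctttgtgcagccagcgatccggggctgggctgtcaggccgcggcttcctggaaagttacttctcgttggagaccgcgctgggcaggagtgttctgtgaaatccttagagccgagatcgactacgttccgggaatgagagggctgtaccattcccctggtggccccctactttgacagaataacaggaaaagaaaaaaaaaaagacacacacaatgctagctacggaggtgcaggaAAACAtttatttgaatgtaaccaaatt
Pik3ip1 (chr11:3330481-3330780, plus strand): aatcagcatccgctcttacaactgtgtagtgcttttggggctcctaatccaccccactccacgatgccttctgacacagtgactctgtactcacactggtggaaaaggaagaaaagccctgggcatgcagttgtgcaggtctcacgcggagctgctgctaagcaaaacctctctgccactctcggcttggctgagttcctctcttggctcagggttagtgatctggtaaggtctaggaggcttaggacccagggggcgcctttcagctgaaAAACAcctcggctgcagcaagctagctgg
The Ccng2 window held 2 matches that began 14 and 8 bases before the start site. The matches of Bcl6 and Pik3ip1 lay after the start, at base 24 and base 22. The Bcl6 window shown belongs to a RefSeq start site inside the gene. The window at the 5′ end of the gene (chr16:23988803-23989102, minus strand) had no match and is not shown. Across the 11 windows found for 9 of the 10 members, 7 held the short core, while 50.5% of all 32851 mouse windows of this length held it. The longer motif GTAAACA (or TGTTTAC) was in 0 of the 11 member windows and in 3.65% of all windows. Letters in a window are a description of sequence and show no binding.

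Among the 12 libraries, 2 went against their labels. The sum of 10 interferon-stimulated genes was 716 and 671 FPKM (fragment counts scaled for transcript length and sequencing depth) in pEGFP-N1 libraries 1 and 3 but 6.21 FPKM in the library labelled pEGFP-N1 2, which was within the 5.52 to 17.8 FPKM of the 6 libraries without plasmid. In the libraries labelled BX795 plus pEGFP-N1 the sum was 704 FPKM in library 1 and 12.9 and 20.2 FPKM in libraries 2 and 3. Each comparison between groups that rests on the plasmid libraries is therefore given with and without pEGFP-N1 library 2 and BX795 plus pEGFP-N1 library 1. Of 9 fibroblast markers found, 7 were present in every library, among them Vim, S100a4 and Col1a1, with a sum between 5575 and 7199 FPKM, while Thy1 and Dcn were at or near 0. Of 5 macrophage markers Cd68, a lysosomal protein gene, made up nearly all of a sum of 112 to 138 FPKM, and Ptprc, Adgre1 and Csf1r were at most 0.07 FPKM. Adipocyte markers summed to at most 1.47 FPKM, epithelial ones to 0.51 and endothelial ones to 0.16. Bulk libraries of this kind cannot tell fewer cells that express a gene from less of its RNA in each cell.

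In mock cells the members spanned a wide range of expression. Pdpk1 (Entrez Gene 18607, chr17:24073680-24150924, minus strand, GRCm38) was the most abundant at 12.9 ± 0.458 FPKM (SD, n = 3, as for all values here), followed by Ccng2 (Entrez Gene 12452, chr5:93267257-93276231, plus strand) at 12.4 ± 0.724 FPKM. The libraries of these 2 genes overlapped, while every later neighbour in the order was separated in all mock libraries. Foxo3 (Entrez Gene 56484, chr10:42181841-42276755, minus strand) stood at 9.28 ± 0.249 FPKM, Irs1 (Entrez Gene 16367, chr1:82233101-82291416, minus strand) at 7.50 ± 0.469 FPKM and Bcl6 (Entrez Gene 12053, chr16:23965052-23988852, minus strand) at 4.56 ± 0.276 FPKM. Irs2 (Entrez Gene 384783, chr8:10984681-11008458, minus strand), Insr (Entrez Gene 16337, chr8:3122061-3279617, minus strand), Pik3ip1 (Entrez Gene 216505, chr11:3330401-3342971, plus strand) and Sesn3 (Entrez Gene 75747, chr9:14275067-14333101, plus strand) followed at 3.72, 3.08, 1.60 and 1.03 FPKM. Foxo1 (Entrez Gene 56458, chr3:52268336-52353221, plus strand) was listed at 0 in 10 of the 12 libraries and at 0.01 FPKM in the other 2.

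Foxo1 therefore lay below the filter of 1 FPKM in at least 3 libraries and was not tested, which leaves 9 members among 10412 genes tested. Among the 4 FOXO genes, transcripts of Foxo3 and Foxo4 were present in L929 cells, and Foxo6 reached at most 0.13 FPKM. Foxo4 stood at 4.36 ± 0.281 FPKM in mock.

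**Figure D1:**
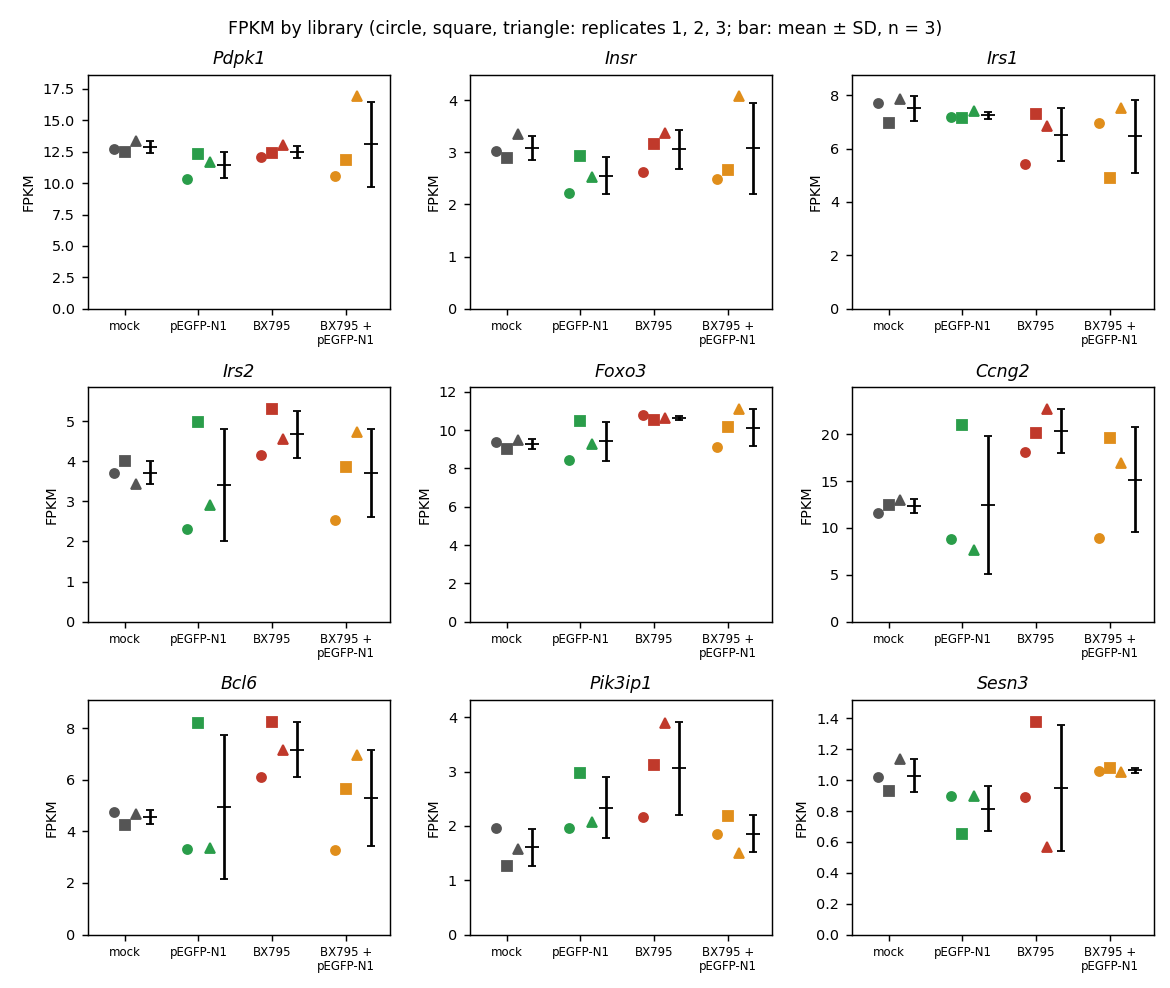
FPKM of the 9 tested members in each of the 12 libraries, with 1 panel per gene, the 4 groups on the horizontal axis, symbols for replicate numbers and a bar for the mean ± SD of 3 libraries. The 3 BX795 libraries of Ccng2, Bcl6, Pik3ip1, Irs2 and Foxo3 lie above all 3 mock libraries, and pEGFP-N1 library 2 of Ccng2 and Bcl6 lies far above its group.

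BX795 alone was first set against mock. Ccng2, Pik3ip1, Bcl6, Irs2 and Foxo3 were higher in all 3 BX795 libraries than in any mock library, and 0 members were lower in all 3. This is 5 of 9 tested members higher, where 23.6% of all tested genes were higher and 16.2% lower without overlap. With 3 libraries against 3, the two-sided exact permutation test gives p = 0.1 for each of these 5 genes, the smallest p that it can give. Whether the differences passed a test across all genes depended on which libraries were in the fit. In the limma fit of all 12 libraries on log2(FPKM + 1), 0 of the 9 members were called at an adjusted p under 0.05, where 0.0672% of all tested genes (7 genes) were called in either direction, and the members' adjusted p lay between 0.219 and 0.971. At an unadjusted p under 0.05, 1 member (Pik3ip1) and 13.8% of all genes passed. In the limma fit of the 6 mock and BX795 libraries alone, 4 of 9 members rose (Ccng2, Pik3ip1, Bcl6 and Foxo3) and 0 fell, where 12.9% of 10241 genes rose and 8.1% fell. At an unadjusted p under 0.05, 5 members and 37.0% of all genes passed in that fit. Both fits hold the same mock and BX795 libraries and give the same fold changes. They differ in the spread drawn from the plasmid libraries and in the genes tested. The adjusted p also depends on how many other genes have a low p. For Pik3ip1 the standard error was 0.174 over 12 libraries and 0.156 over 6. Its unadjusted limma p was 0.00384 and 0.00293.

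Ccng2, an atypical cyclin that slows the cell cycle and is a widely used readout of FOXO activity, had the largest log2 fold change of the members on the log2(FPKM + 1) scale. With a pseudocount of 0.1 Pik3ip1 exceeded it (0.87 against 0.71), as it did after rescaling to TPM, FPKM brought to 1 common total per library (0.73 against 0.68). The mock libraries measured 11.6, 12.5 and 13.0 FPKM and the BX795 libraries 18.1, 20.2 and 22.7 FPKM. The lowest BX795 library was above the highest mock library by a wide margin, and the ratio of the means was 1.64. The log2 fold change was 0.67 on this scale, on which changes of weakly expressed genes come out too small. The 95% interval in the fit of 6 libraries was 0.49 to 0.85 (limma adjusted p = 0.000837), and in the fit of 12 libraries it was -0.04 to 1.38 (limma adjusted p = 0.376).

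Bcl6, a transcriptional repressor whose targets include D-type cyclins, measured 4.75, 4.24 and 4.68 FPKM in the mock libraries and 6.10, 8.25 and 7.15 FPKM in the BX795 libraries. Again no BX795 library reached down to the mock range. The ratio of the means was 1.57 and the log2 fold change 0.55, with a 95% interval of 0.33 to 0.76 over 6 libraries (limma adjusted p = 0.00532) and an adjusted p of 0.395 over 12 libraries.

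Pik3ip1 encodes a membrane protein that restrains PI3-kinase. It measured 1.96, 1.27 and 1.58 FPKM in the mock libraries and 2.17, 3.12 and 3.89 FPKM in the BX795 libraries. The BX795 libraries were spread widely, and the lowest of them stood only just above mock library 1. The ratio of the means was 1.91 and the log2 fold change 0.63 (95% interval 0.27 to 0.98 over 6 libraries, limma adjusted p = 0.0226), and its adjusted p over 12 libraries was 0.219. Without a filter on low values the limma adjusted p of Pik3ip1 over 6 libraries was 0.0804, and it was 0.0916 without mock library 2, 0.0710 without mock library 3, 0.0779 without BX795 library 2 and 0.0722 without BX795 library 3.

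Foxo3 itself, the most abundant FOXO transcript of these cells, measured 9.38, 9.0 and 9.47 FPKM in the mock libraries and 10.8, 10.5 and 10.6 FPKM in the BX795 libraries. The 3 BX795 libraries were tightly grouped just above the mock range. Its log2 fold change of 0.18 was small, with a 95% interval of 0.06 to 0.29 over 6 libraries (limma adjusted p = 0.0371) and an adjusted p of 0.374 over 12. Over the 6 libraries it was called in 3 of 12 alternative settings, and its limma adjusted p lay between 0.0852 and 0.122 when any library but BX795 library 1 was left out.

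Irs2, the docking protein whose gene FOXO factors activate, measured 3.71, 4.0 and 3.44 FPKM in the mock libraries and 4.16, 5.31 and 4.55 FPKM in the BX795 libraries. The groups did not overlap, with the lowest BX795 value close to the highest of mock. The log2 fold change of 0.26 (95% interval 0.07 to 0.46 over 6 libraries) missed the threshold, with a limma adjusted p of 0.0619 over 6 libraries and 0.552 over 12. Irs2 was called over 6 libraries when BX795 library 1 was left out.

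The other 4 tested members overlapped between the groups. Pdpk1, which encodes PDK1, measured 12.7, 12.5 and 13.4 FPKM in the mock libraries and 12.1, 12.4 and 13.0 FPKM in the BX795 libraries. The log2 fold change of Pdpk1 was -0.04, and its 95% interval over 6 libraries ran from -0.16 to 0.08 (limma adjusted p = 0.633). For Insr, also a known FOXO target, it was -0.01 with an interval of -0.21 to 0.18 (limma adjusted p = 0.928). Irs1, the docking protein that is not counted here among FOXO targets, measured 7.69, 6.97 and 7.85 FPKM in the mock libraries and 5.43, 7.31 and 6.83 FPKM in the BX795 libraries. BX795 library 1 was the lowest of the 6, and the interval of the log2 difference, -0.40 to 0.03, included 0 (limma adjusted p = 0.193). Sesn3, a stress-induced inhibitor of mTORC1, measured 1.02, 0.93 and 1.14 FPKM in the mock libraries and 0.89, 1.38 and 0.57 FPKM in the BX795 libraries. Its BX795 libraries lay on both sides of mock, and the interval of -0.40 to 0.24 was wide.

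Among the 6 FOXO-regulated members as a group (Ccng2, Bcl6, Pik3ip1, Irs2, Insr and Sesn3), 3 rose and 0 fell over the 6 libraries, and the median log2 fold change was 0.41 against 0.03 for all tested genes, of which 12.9% rose and 8.1% fell. Over 12 libraries 0 of these 6 were called, where 0.0672% of all genes were. Of the 7 fibroblast markers tested, 3 (Col1a1, Col3a1 and Pdgfrb) also rose over the 6 libraries and 0 fell, and 0 were called over 12, so that transcripts outside the FOXO route moved beside these members. The part of these markers in the result was not tested.

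**Figure D2:**
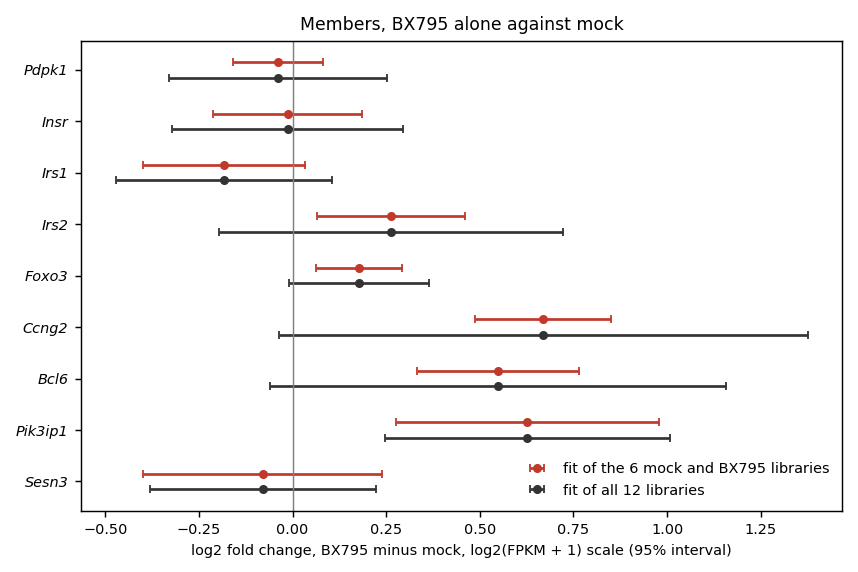
Log2 fold change of each tested member, BX795 minus mock on the log2(FPKM + 1) scale, with 95% intervals from the limma fit of the 6 mock and BX795 libraries (red) and of all 12 libraries (black). The points of the 2 fits coincide, and the intervals of Ccng2, Bcl6, Irs2 and Foxo3 lie above 0 in the fit of 6 libraries but include 0 in the fit of 12, while that of Pik3ip1 lies above 0 in both.

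The plasmid groups were more spread than the others: the SD of Ccng2 was 7.40 and 5.58 FPKM in pEGFP-N1 and in BX795 plus pEGFP-N1, against 0.724 FPKM in mock and 2.34 FPKM with BX795. Ccng2 was at 8.77, 20.98 and 7.63 FPKM in pEGFP-N1 libraries 1 to 3 and at 8.92, 19.6 and 16.9 FPKM in BX795 plus pEGFP-N1 libraries 1 to 3. The library labelled pEGFP-N1 2 thus lay in the range of the BX795 libraries, and the library labelled BX795 plus pEGFP-N1 1 lay beside pEGFP-N1 libraries 1 and 3, below every mock library. In Bcl6 the same 2 libraries stood apart from their groups, with 3.32, 8.18 and 3.34 FPKM in the pEGFP-N1 libraries and 3.29, 5.62 and 6.95 FPKM in those given both agents. Irs2 measured 2.31, 4.99 and 2.92 FPKM in the pEGFP-N1 libraries and 2.53, 3.86 and 4.72 FPKM in those given both agents. In all 3 genes the 3 libraries with the highest interferon sums were the lowest 3 of the 12. What separates these libraries from the others of their groups was not tested, nor was whether the labels of pEGFP-N1 library 2 and BX795 plus pEGFP-N1 library 1 were exchanged, which would change what every value of the plasmid groups means.

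Over the 12 libraries the log2 values of Bcl6 correlated with those of Ccng2 (Pearson r = 0.94) and of Irs2 (r = 0.94), and those of Foxo3 with Bcl6 (r = 0.89). Without the 2 libraries these values were 0.93, 0.93 and 0.90. Of the 36 pairs of members the highest correlation was that of Pdpk1 and Insr (r = 0.94 over 12 and over 10 libraries), neither of which was called, and Sesn3 had r = -0.19 with Ccng2 and -0.12 with Bcl6 over 12 libraries and 0.0079 and 0.16 over 10. They are descriptions over libraries that share group and treatment. By the same measure over 12 libraries the genes most like Ccng2 were Arhgef19 (r = 0.992), Zbtb8b (r = 0.991) and Olfr1033 (r = 0.989). In Pik3ip1 pEGFP-N1 library 2 was again the highest of its group, but library 1 of the group given both agents was not the lowest, with 1.96, 2.98 and 2.07 FPKM under pEGFP-N1 and 1.86, 2.19 and 1.51 FPKM under both agents.

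**Figure D3:**
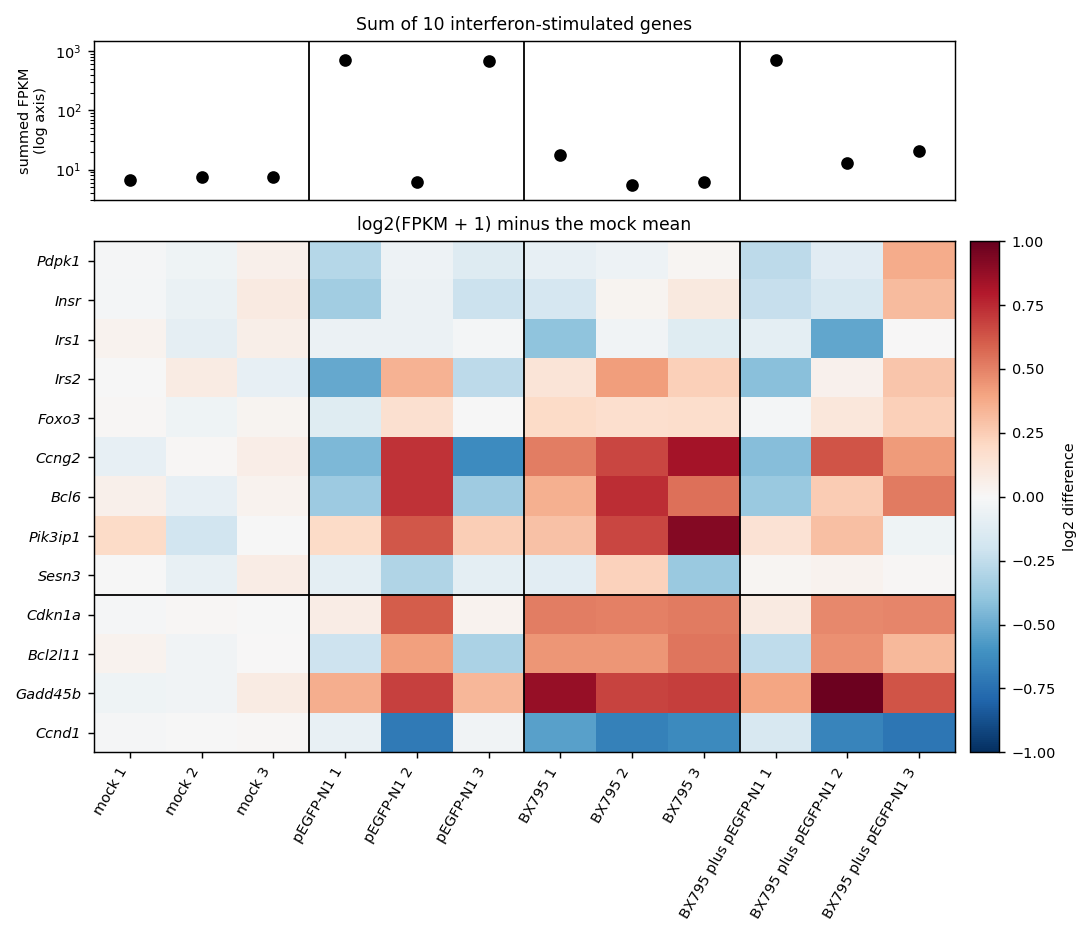
The upper panel plots the summed FPKM of 10 interferon-stimulated genes in each library on a log axis, and the lower panel colours log2(FPKM + 1) minus the mock mean for the 9 tested members and, below the black line, Cdkn1a, Bcl2l11, Gadd45b and Ccnd1. In Ccng2, Bcl6 and Irs2, pEGFP-N1 library 2 has the colour of the BX795 libraries, and BX795 plus pEGFP-N1 library 1 has that of pEGFP-N1 libraries 1 and 3.

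Pdpk1 measured 10.3, 12.3 and 11.6 FPKM in the pEGFP-N1 libraries and 10.5, 11.8 and 16.9 FPKM in those given both agents. The last of these, BX795 plus pEGFP-N1 library 3, was the highest of all 12, and Insr was also highest there at 4.08 FPKM. The genes most like Pdpk1 were S100pbp (r = 0.979), Rasa1 (r = 0.975) and Atxn7 (r = 0.971), and each was highest in this same library. Foxo3 measured 8.44, 10.5 and 9.28 FPKM in the pEGFP-N1 libraries and 9.13, 10.2 and 11.1 FPKM in those given both agents, so that its groups overlapped.

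The effect of BX795 was also averaged over cells with and without plasmid, 6 libraries against 6. In the limma fit of all 12 libraries 0 of 9 members were called, as were 0.0% of all tested genes, while 11.3% of all genes had an unadjusted p under 0.05. Foxo3 was the 1 member among these, with a log2 difference of 0.14 (95% interval 0.01 to 0.27, limma adjusted p = 0.433), and the exact permutation test of this value alone gave a two-sided p of 0.0390. The difference of Ccng2 was 0.50, with a 95% interval from just under 0 to 0.999.

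Without pEGFP-N1 library 2 and BX795 plus pEGFP-N1 library 1, 4 of 9 members rose in this average, where 20.0% of 10345 genes did and 33.6% changed in either direction. Ccng2 differed by 0.87 (limma adjusted p = 1.37e-05), Bcl6 by 0.65 (limma adjusted p = 0.000242), Irs2 by 0.41 (limma adjusted p = 0.00401) and Foxo3 by 0.21 (limma adjusted p = 0.00809) on the log2 scale. In the same 10 libraries BX795 minus mock called Ccng2, Bcl6 and Pik3ip1, 3 of 9 members, where 9.02% of genes rose. Irs2 and Foxo3 were not called in that comparison (limma adjusted p of 0.116 and 0.0756). These 2 libraries were left out for their interferon genes, and the called members differ in them too: pEGFP-N1 library 2 was the highest of its group and BX795 plus pEGFP-N1 library 1 the lowest of its group in Ccng2, Bcl6, Irs2 and Foxo3. In the average, leaving them out therefore both widens the differences of these 4 members and narrows their spread. In BX795 minus mock the differences stay the same. The standard error of Pik3ip1 there was 0.174 over 12 libraries and 0.158 over 10. All calls over 10 libraries are conditional on leaving these 2 libraries out.

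Within transfected cells, BX795 plus pEGFP-N1 was set against pEGFP-N1. Over all 12 libraries limma called 0 of 9 members and 0.0% of all genes, and at an unadjusted p under 0.05 it passed 0 members and 1.59% of all genes. The log2 difference was 0.33 for Ccng2 with a 95% interval of -0.38 to 1.04. Without the same 2 libraries, Ccng2 rose by 1.07 (limma adjusted p = 0.000133), Bcl6 by 0.74 (limma adjusted p = 0.00298), Irs2 by 0.55 (limma adjusted p = 0.0151) and Foxo3 by 0.24 (limma adjusted p = 0.0495), where 10.5% of all genes rose. This fit leaves each plasmid group with 2 libraries. Pik3ip1, which rose with BX795 alone, had a difference of -0.09 here with an interval of -0.52 to 0.34. The pEGFP-N1 controls of this fit stood below mock, by log2 differences of -0.54 in Ccng2, -0.36 in Bcl6 and -0.39 in Irs2. The differences within transfected cells are therefore not measured from the mock level. For Irs2, BX795 minus mock was 0.26 in the same 10 libraries (limma adjusted p = 0.116).

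Plasmid alone was compared with mock in the same way. Over 12 libraries limma called 0 of 9 members, where it called 0.0672% of all genes, and at an unadjusted p under 0.05 it passed 0 members and 4.69% of all genes. Without the 2 libraries Ccng2 fell by 0.54 on the log2 scale (limma adjusted p = 0.0161), where 1.34% of all genes fell, and Bcl6 and Irs2 had differences of -0.36 and -0.39 (limma adjusted p of 0.124 and 0.102). The test of whether plasmid changed the BX795 difference called 0 members in either set of libraries, where it called 0.0% of all genes over 12 libraries and 0.947% over 10. At an unadjusted p under 0.05 it passed 1 member and 3.91% of all genes over 12 libraries, and 3 members (Ccng2, Pik3ip1 and Pdpk1) and 9.12% of all genes over 10. For Ccng2 the interaction changed sign, from -0.34 over 12 libraries (limma adjusted p = 0.868) to 0.40 over 10 (limma adjusted p = 0.452). For Pik3ip1 this interaction was -0.85 over 12 libraries, with an unadjusted limma p of 0.00514 and an adjusted p of 0.842, and it was -0.72 over 10 libraries (limma adjusted p = 0.430). Each of these comparisons shares its control libraries with at least 1 of the others.

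Other genes that FOXO factors activate were read from the same fits. Of 34 listed, 31 were in the table and 20 passed the filter of the 6 mock and BX795 libraries. Over these libraries 6 rose and 0 fell, where 12.9% of all genes rose, and the median log2 fold change was 0.19 against 0.03 for all genes. In the fit of 12 libraries 0 of the 20 were called. The 6 were Gadd45b, Cdkn1a, Bcl2l11, Bbc3, Txnip and Sod2. They span growth arrest and DNA damage response (Gadd45b, Cdkn1a), apoptosis (Bcl2l11, Bbc3) and redox control (Txnip, Sod2), and several are also activated by factors other than FOXO. This list, like the members and the other lists, was chosen with earlier results of these data known. Its share and median beside those of all genes are descriptions, and no test of a list was run.

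Cdkn1a, which encodes the cell cycle inhibitor p21, measured 54.0, 55.0 and 54.2 FPKM in the mock libraries and 77.8, 77.7 and 78.4 FPKM in the BX795 libraries. The replicates nearly coincided within each group, and the log2 fold change was 0.51 (limma adjusted p = 7.27e-05 over 6 libraries and 0.211 over 12). Bcl2l11, which encodes the pro-apoptotic protein BIM, measured 7.19, 6.79 and 7.02 FPKM in the mock libraries and 9.88, 9.88 and 10.6 FPKM in the BX795 libraries, a log2 fold change of 0.48 (limma adjusted p = 0.000747 over 6 libraries and 0.323 over 12). Gadd45b measured 24.0, 24.1 and 26.2 FPKM in the mock libraries and 46.0, 40.1 and 40.6 FPKM in the BX795 libraries. Its difference, 0.75 on the log2 scale, was the widest of the list (limma adjusted p = 0.000137 over 6 libraries and 0.0845 over 12). Prdx3, a mitochondrial peroxidase, was the only gene of the list that was lower without overlap, with a log2 fold change of -0.09 that missed the threshold (limma adjusted p = 0.142 over 6 libraries).

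In Cdkn1a and Bcl2l11 the same 2 plasmid libraries stood apart from their groups as in Ccng2. Cdkn1a measured 57.4, 83.3 and 55.8 FPKM in the pEGFP-N1 libraries and 58.1, 76.4 and 76.8 FPKM in those given both agents. Bcl2l11 measured 5.92, 9.65 and 5.43 FPKM in the pEGFP-N1 libraries and 5.71, 9.97 and 9.02 FPKM in those given both agents. In both genes the library labelled pEGFP-N1 2 was at or near the level of BX795, and the library labelled BX795 plus pEGFP-N1 1 at that of pEGFP-N1 libraries 1 and 3. Gadd45b was above mock in every plasmid library, at 31.45 FPKM or more. In the difference averaged over plasmid 0 of the 20 were called over 12 libraries, while without the 2 libraries 9 rose and 1 fell, where 20.0% of all genes rose and 13.6% fell.

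FOXO factors repress D-type cyclins, which drive entry into the cell cycle, and of the 2 in the list Ccnd1 fell over the 6 libraries and Ccnd2 was not called there. Ccnd1 measured 134, 135 and 136 FPKM in the mock libraries and 92.5, 84.3 and 86.7 FPKM in the BX795 libraries. All 3 BX795 libraries were far below mock, and Ccnd1 fell by 0.62 on the log2 scale in the fit of 6 libraries (limma adjusted p = 7.27e-05), where 8.1% of all genes fell. Its adjusted p over 12 libraries was 0.219. In the plasmid groups Ccnd1 measured 128, 82.2 and 132 FPKM in the pEGFP-N1 libraries and 121, 85.2 and 81.7 FPKM in those given both agents, the mirror image of Cdkn1a. Ccnd2 had a log2 fold change of -0.12 (limma adjusted p = 0.202 over 6 libraries). In the difference averaged over plasmid neither cyclin was called over 12 libraries, while without the 2 libraries both fell, Ccnd1 by 0.62 (limma adjusted p = 1.85e-06) and Ccnd2 by 0.17 (limma adjusted p = 0.0315), where 13.6% of all genes fell.

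Of 35 other genes listed for the insulin, PI3K and AKT pathway, 34 were in the table and 27 were tested, and over the 6 libraries 1 rose and 2 fell, with a median log2 fold change of 0.02 against 0.03 for all genes. Of all genes 12.9% rose and 8.1% fell, so the share of this list that rose was below that of all genes and the share that fell was close to it. Akt1 was in the list but not among the 27 genes tested, so no value is given for it. Pik3r2, a regulatory subunit of PI3-kinase, rose from 29.9 ± 0.463 to 33.9 ± 1.97 FPKM (log2 fold change 0.18, limma adjusted p = 0.0402). Ptpn1, the phosphatase that turns the insulin receptor off, fell from 21.2 ± 0.625 to 17.1 ± 0.240 FPKM (log2 fold change -0.29, limma adjusted p = 0.00333). Trib3, a pseudokinase that binds AKT, fell from 56.0 ± 2.04 to 47.5 ± 0.419 FPKM (log2 fold change -0.23, limma adjusted p = 0.00668). Pik3cd and Pik3r1, which encode a catalytic and a regulatory subunit of PI3-kinase, were higher without overlap but missed the threshold (limma adjusted p of 0.144 and 0.130). In the difference averaged over plasmid 0 of the 27 were called over 12 libraries, and without the 2 libraries 4 rose and 3 fell, where 20.0% of all genes rose and 13.6% fell.

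Of 20 genes of mTORC1 and mTORC2 and their regulators, 19 were tested, and over the 6 libraries 5 rose and 0 fell around a median of 0.01, where 12.9% of all genes rose and 8.1% fell. Tbc1d7, a subunit of the TSC complex that restrains mTORC1, rose from 4.93 ± 0.362 to 7.0 ± 0.469 FPKM (log2 fold change 0.43, limma adjusted p = 0.00421). Ddit4, a stress-induced inhibitor of mTORC1, rose from 12.4 ± 0.612 to 15.6 ± 1.13 FPKM (log2 fold change 0.31, limma adjusted p = 0.0113). Stk11, the kinase upstream of AMPK, rose from 50.3 ± 2.26 to 62.0 ± 4.76 FPKM (log2 fold change 0.29, limma adjusted p = 0.0109). Tsc2 and Mapkap1, a subunit of mTORC2, were the other two, with log2 fold changes of 0.19 and 0.17. In the difference averaged over plasmid 0 of the 19 were called over 12 libraries, and without the 2 libraries 8 rose and 0 fell, where 20.0% of all genes rose. In the fit of 12 libraries 0 genes of the cyclin, insulin or mTORC lists were called in BX795 minus mock.

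**Figure D4:**
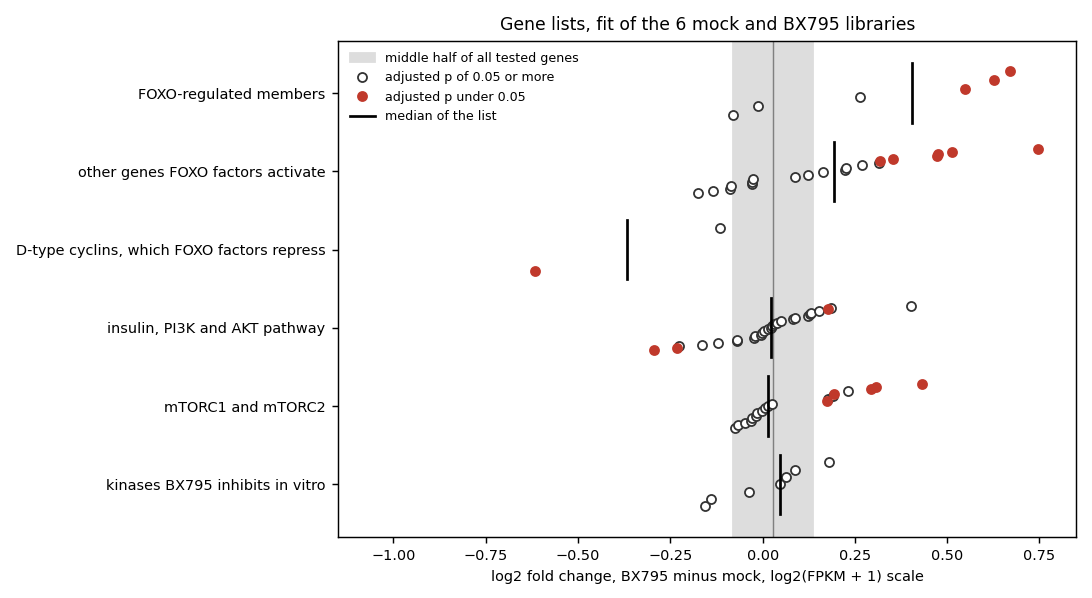
Log2 fold change, BX795 minus mock on the log2(FPKM + 1) scale, of every tested gene in 6 gene lists, from the limma fit of the 6 mock and BX795 libraries, with filled points for genes with an adjusted p under 0.05, a black line at each list's median and points spread vertically only to be seen. The grey band runs from the lower to the upper quartile of all tested genes, -0.08 to 0.14, and the list medians are 0.41 for the FOXO-regulated members, 0.19 for other genes FOXO factors activate and 0.02 for the insulin, PI3K and AKT pathway. The band describes single genes and is no yardstick for a list's median.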

How the data were processed

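RNA from 12 L929 libraries in 4 groups of 3 was sequenced on the BGISEQ-500 platform. The authors aligned reads with Bowtie2 2.2.5 to GRCm38.p5, quantified genes with RSEM (version not given in the labels) and deposited 1 table of FPKM values, given to 0.01 FPKM, so read depth is unknown and no counting error can be stated. The FPKM totals lay between 467348 and 513761. Entrez Gene IDs were matched to RefSeq symbols for 17450 of 17571 genes. Akt1 was not analysed here. Positions are from GENCODE on GRCm38. Members shared at most 0.826% of their 31-base sequences with other genes.

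FPKM was fitted as log2(FPKM + 1) with limma 3.58.1 (R 4.3.3), with 4 group means, trended empirical Bayes and a filter of at least 1 FPKM in at least 3 libraries. A gene was called at a Benjamini-Hochberg adjusted p under 0.05 over all tested genes, at any size. Only FPKM was deposited in the table used here, and every column of values was used. Single genes were also tested by two-sided exact permutation. Alternatives were another pseudocount, filters, scalings, fewer libraries, a replicate block and each library left out. Nothing in the labels says that replicates were separate cultures or gives a batch, so p-values measure only the spread between these libraries.

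The members and gene lists were chosen with earlier results of these data known. Named genes were all members, and from each wider list up to 3 genes per direction with the largest difference and no overlap between BX795 and mock, plus those called in the fit of 12 libraries. Bbc3, Txnip, Sod2, Tsc2, Mapkap1 and Ccnd2 were named after their values were seen, as were Foxo4 and Foxo6 and the short motif. For Pdpk1 and Ccng2 the 3 genes with the highest correlation over 12 libraries were named.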

Additional observations from a re-analysis of the deposited data

How the results depend on the processing

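Over all 12 libraries, 0 members were called in BX795 minus mock or in the difference averaged over plasmid under another pseudocount, filter, scaling or trend setting, or under the replicate block, and the block left 0 of 9 members called in every contrast. The labels do not say whether same-numbered libraries were paired, and the correlation of their deviations cannot decide it. This correlation ranged from -0.39 to 0.63 and was over 0.1 in 6 of 18 pairs. Its mean was 0.12, against -0.07 between libraries of different number. The 2 libraries that go against their labels enter these deviations. Restricting the fit to the groups compared called 4 members and 2154 genes in BX795 minus mock, against 0 members and 7 genes. Leaving out pEGFP-N1 library 2 and BX795 plus pEGFP-N1 library 1 together called 3 members and 1467 genes in BX795 minus mock, 4 members and 3481 genes in the average, 1 member in pEGFP-N1 minus mock and 4 members in BX795 plus pEGFP-N1 minus pEGFP-N1. Cut-offs of 0.001 for the adjusted p and 2 for the log2 fold change left 0 genes called in BX795 minus mock. The average over plasmid called 0 genes, but 1 without a filter, 3 without a trend and 1 with the replicate block.

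Leaving out 1 library at a time moved the genes called from 0 to 156 in BX795 minus mock and from 0 to 827 in the average, with the highest values without pEGFP-N1 library 2 (82 and 414 without BX795 plus pEGFP-N1 library 1), and the members called in the average from 0 to 2 (Ccng2 and Bcl6 without pEGFP-N1 library 2). In the fit of the 6 mock and BX795 libraries the members called ranged from 2 to 5 and the genes from 899 (without mock library 1) to 4406 (without BX795 library 1). Without a filter that fit called 2 members and 1364 genes. Ccng2 and Bcl6 were called in all 12 alternatives of it, Pik3ip1 in 7 and Foxo3 in 3, and with the replicate block it called 4 members (Ccng2, Pik3ip1, Bcl6 and Irs2) and 2298 genes. Its split of 1324 higher and 830 lower genes was 1134 and 969 after scaling to the 75th percentile and 1021 and 999 after quantile normalization. These alternatives of the 6-library fit were added after the data were seen.

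Small differences changed sign when 1 library was left out. In BX795 minus mock, Insr ranged from -0.070 to 0.064 and was above 0 without BX795 library 1 (0.064) or mock library 3 (0.031), and Sesn3 ranged from -0.24 to 0.064, above 0 without BX795 library 3. In the average, Sesn3 ranged from -0.024 (without BX795 library 2) to 0.13, Pdpk1 from -0.034 to 0.13 and Insr from -0.000513 to 0.14, both lowest without BX795 plus pEGFP-N1 library 3. The cause was not tested.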

Other observations

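The kinases that BX795 inhibits in vitro were read from the same fits. Of 8 listed genes 7 were tested, and 0 were called in BX795 minus mock by limma over 12 or over 6 libraries, where 0.0672% of all genes were called over 12 libraries, and 12.9% rose and 8.1% fell over 6. At an unadjusted p under 0.05, 2 kinase genes and 13.8% of all genes passed over 12 libraries, and 3 kinase genes and 37.0% of all genes over 6. Tbk1, which encodes the kinase downstream of STING, was at 21.2 ± 0.590 FPKM in mock and 19.2 ± 0.390 FPKM with BX795 (SD, n = 3), a log2 fold change of -0.14 (limma adjusted p = 0.0584 over 6 libraries). Ikbke, which encodes IKKε, was at 4.27 ± 0.168 and 4.97 ± 0.324 FPKM, a log2 fold change of 0.18 (limma adjusted p = 0.0884 over 6 libraries). Nuak1, an AMPK-related kinase, was at 4.58 ± 0.252 and 4.01 ± 0.131 FPKM, a log2 fold change of -0.16 (limma adjusted p = 0.117 over 6 libraries).

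Foxo4, a FOXO gene outside the 10 members, measured 4.09, 4.34 and 4.65 FPKM in the mock libraries and 4.22, 6.87 and 7.64 FPKM in the BX795 libraries. Under pEGFP-N1 it measured 3.05, 7.39 and 2.99 FPKM, and under both agents 3.26, 4.36 and 3.88 FPKM. BX795 library 1 lay within the mock range and the other two above it, and pEGFP-N1 library 2 was again apart from pEGFP-N1 libraries 1 and 3. The log2 fold change of Foxo4 in BX795 minus mock was 0.40 (limma adjusted p = 0.103 over 6 libraries). In the difference averaged over plasmid it was not called over 12 libraries, and it was 0.38 without pEGFP-N1 library 2 and BX795 plus pEGFP-N1 library 1 (limma adjusted p = 0.0340).

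Of the 10 interferon-stimulated genes, 1 was higher and 3 were lower without overlap in BX795 against mock, where 23.6% of all tested genes were higher and 16.2% lower. Cxcl10 measured 0.31, 0.47 and 0.42 FPKM in the mock libraries and 7.86, 0.90 and 1.85 FPKM in the BX795 libraries, so that BX795 library 1 stood far above the others. Rtp4, Ifi44 and Usp18 were lower, with means of 0.870, 0.0233 and 0.353 FPKM in BX795 and 1.24, 0.183 and 0.543 FPKM in mock. Cxcl10, Ifi44 and Usp18 passed the filter only through plasmid libraries, so no test is given for them. Over the 6 libraries 3 genes of the list were tested and limma called 0 of them, with 1 at an unadjusted p under 0.05, and Rtp4 had a log2 fold change of -0.27 (limma adjusted p = 0.0752).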
